A study of Rattus norvegicus with 6 samples.

Results

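The genes described here encode 9 transcription factors that set and keep the hepatocyte state: Hnf4a, Foxa1, Foxa2, Foxa3, Cebpa, Cebpb, Prox1, Onecut1 and Nr5a2. They were chosen by name, and their probes were found by matching the RefSeq accession on the array to the rat gene symbol. All 9 were on the array and all 9 were measured, among 28995 features tested, of which 11405 had a gene symbol. Liver RNA of 6 male Sprague-Dawley rats (Crl:CD(SD)) was hybridised to 1-colour Agilent microarrays, with 1 array per animal. The treated group was 3 rats given bromodichloromethane (BDCM), a trihalomethane that forms when water is chlorinated, at 200 mg/kg/day, and the control group was 3 rats given corn oil. The animals were 5 weeks old when bought. One label field speaks of 28 days and another of 9 weeks of administration, so how long they were exposed is not settled here, and the route is not given in the sources used here. The series asks how a chemical alters liver gene expression.

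HNF4A and NR5A2 are nuclear receptors, the FOXA proteins are forkhead factors that can bind closed chromatin, the C/EBP proteins are leucine zipper factors, and PROX1 and ONECUT1 (also called HNF6) are homeodomain factors. Several of them are needed in the embryo to form liver from endoderm. In the adult many of them bind each other's genes and, together, the promoters and enhancers of the genes for plasma proteins, apolipoproteins, bile acid enzymes and the urea cycle.

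Over the 6 arrays the processed signal had a 75th percentile of 670 to 825 fluorescence units, and no probe was saturated. The share of probes well above background was 65.3% to 66.9% in BDCM livers and 61.3% to 63.9% in corn oil livers. BDCM replicate 1 and all 3 corn oil arrays lay on slide 1, and slide 2, from another scan, held BDCM replicates 2 and 3. All 15 hepatocyte marker genes were measured, with a summed signal of 5290 to 5910 in BDCM livers and 6270 to 7130 in corn oil livers. These and all following values, unless said otherwise, are relative signals, that is the processed signal of a probe divided by the 75th percentile of its array. The signal of a probe depends on its sequence, so levels are compared between animals and not between genes.

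In the BDCM livers none of the 9 factor genes changed past the threshold, a Benjamini-Hochberg adjusted p of 0.05 in limma. The largest log2 fold changes, BDCM over corn oil, were 0.78 for Onecut1, -0.61 for Cebpb and 0.59 for Foxa2, and the other 6 lay between -0.31 and 0.19. Of all features 9.36% passed, 5.96% higher and 3.41% lower in BDCM livers. Only Cebpb had an unadjusted p below 0.05, which 27.5% of all features had. One gene of the 9, Nr5a2, had groups without overlap, as did 34.4% of all features. Both statements hold for the probe that stands for each gene, and another Hnf4a probe, described below, differs in both. Other Nr5a2 probes differ too. The groups overlap on A_64_P035940, and the 95% interval of the log2 fold change of A_64_P009798, -0.68 to -0.03, lay wholly on the lower side. The median size of the log2 fold change, without its sign, was 0.19 over the 9 genes and 0.20 over all features. For 6 of the 9 genes the whole 95% interval of the fold change lay within 2-fold either way, as it did for 83.0% of all features. The intervals of Foxa2, Cebpb and Onecut1 reach beyond 2-fold. The 9 genes were read by 18 probes, and none of these passed on its own, against 8.52% of all kept probes. Within slide 1, where BDCM replicate 1 is the only treated array, all 9 log2 fold changes kept their sign. The values within slide 1 were 0.14 for Hnf4a, 0.22 for Foxa1, 1.11 for Foxa2, -0.20 for Foxa3, 0.26 for Cebpa, -0.36 for Cebpb, -0.26 for Prox1, 1.03 for Onecut1 and -0.20 for Nr5a2. With slide as a fixed block none passed. Its log2 fold changes equal those within slide 1 by construction, because slide 2 holds only BDCM arrays.

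**Figure D1:**
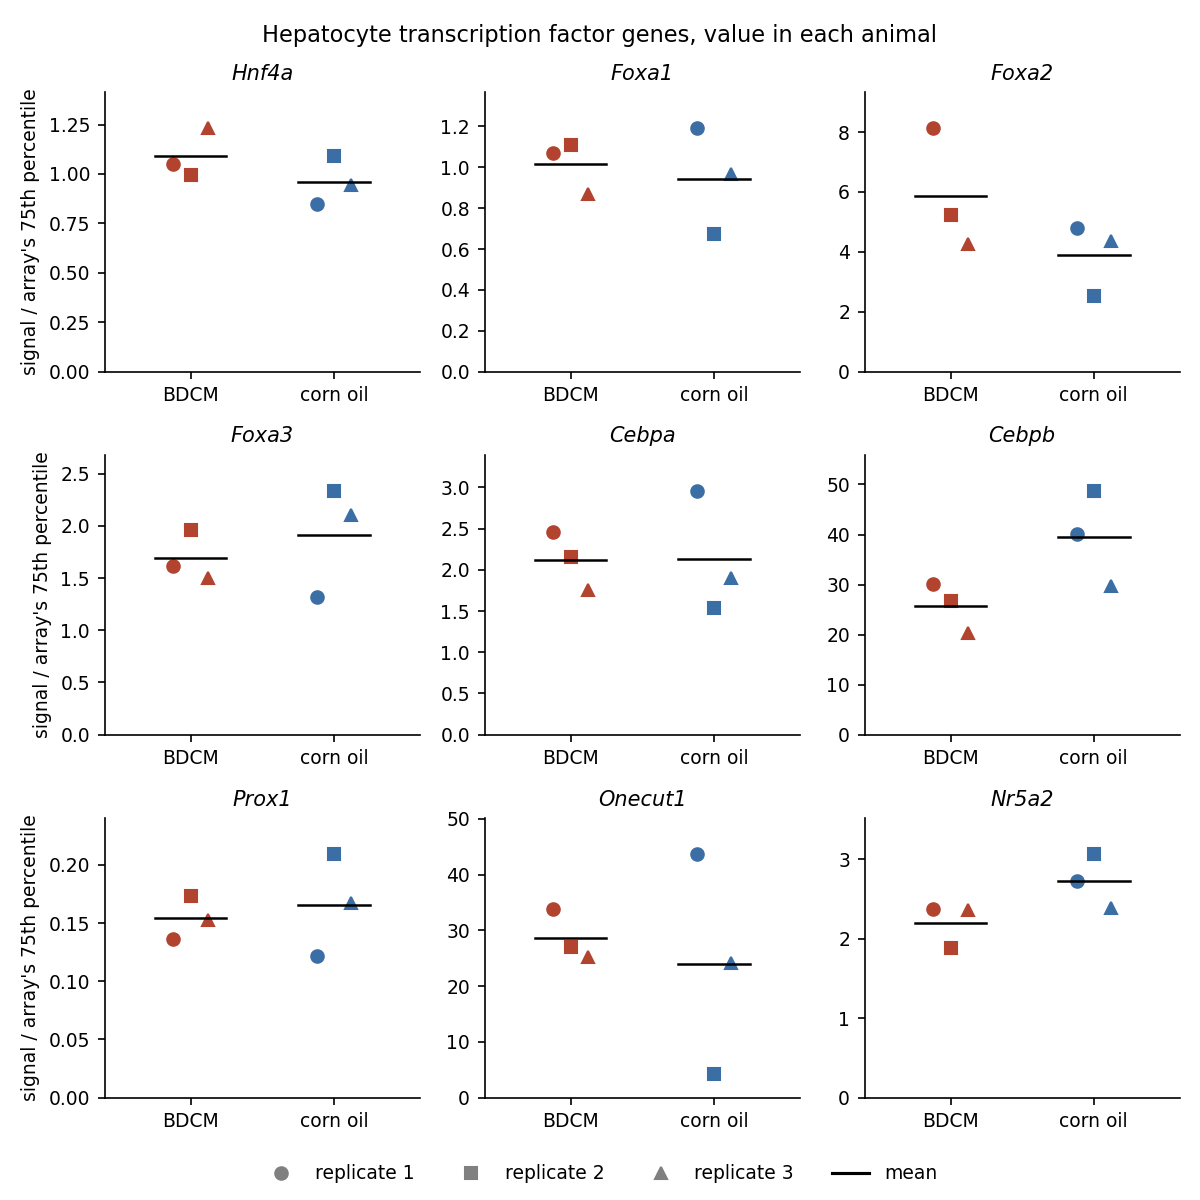
Relative signal (processed signal divided by the 75th percentile of the array) of the 9 genes in each of the 3 BDCM livers and the 3 corn oil livers, with the replicate as the marker shape and the mean as a line. Onecut1 spans 4.27 to 43.6 in corn oil livers, and Nr5a2 is the gene whose groups do not overlap.

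The start regions of the genes give context for the values. In the table used here, made from NCBI RefSeq and the rat assembly GRCr8, 6 of the 9 genes have a window of 300 bases, from 250 before to 50 after the start site: Hnf4a, Foxa2, Foxa3, Cebpa, Cebpb and Nr5a2. Hnf4a has 2 annotated start sites, 35.6 kb apart on chromosome 3, and both windows are shown because the Hnf4a probes differed from each other. In mammals Hnf4a is known to have a downstream promoter that dominates in adult liver and an upstream one used in embryonic liver and pancreas. The windows of Cebpb and Nr5a2 are shown because these 2 genes had the smallest unadjusted p of the 9, 0.0345 and 0.0724 in limma. The 9 motifs searched on both strands were CAAAGTCCA (HNF4 type), AGGTCA (nuclear receptor half-site), TGTTTAC and TGTTTGC (forkhead), TTGCGCAA and TTNNGCAA (C/EBP, where the first is a case of the second), ATCAAT (HNF6 type), and TCAAGGTCA and CAAGGTCA (NR5A type, both of which hold AGGTCA). Capitals mark a match.
Hnf4a upstream start, chr3:172605970-172606269, plus strand: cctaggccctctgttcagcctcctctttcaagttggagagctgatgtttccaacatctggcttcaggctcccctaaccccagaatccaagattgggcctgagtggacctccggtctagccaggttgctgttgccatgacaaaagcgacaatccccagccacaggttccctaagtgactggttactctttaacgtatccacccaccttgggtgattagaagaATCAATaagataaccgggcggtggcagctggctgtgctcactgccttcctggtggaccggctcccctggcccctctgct
Hnf4a downstream start, chr3:172641586-172641885, plus strand: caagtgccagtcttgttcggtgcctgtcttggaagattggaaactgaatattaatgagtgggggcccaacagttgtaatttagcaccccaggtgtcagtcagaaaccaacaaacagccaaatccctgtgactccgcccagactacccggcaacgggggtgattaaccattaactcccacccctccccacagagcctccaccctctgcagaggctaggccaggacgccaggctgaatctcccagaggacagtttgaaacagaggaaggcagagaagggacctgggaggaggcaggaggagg
Cebpb, chr3:176816755-176817054, plus strand: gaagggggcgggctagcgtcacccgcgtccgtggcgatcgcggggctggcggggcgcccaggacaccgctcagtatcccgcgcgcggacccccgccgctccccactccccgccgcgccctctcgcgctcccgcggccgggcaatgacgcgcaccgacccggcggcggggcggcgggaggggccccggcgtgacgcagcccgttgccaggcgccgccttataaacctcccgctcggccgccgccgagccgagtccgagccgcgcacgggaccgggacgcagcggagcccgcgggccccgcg
Nr5a2, chr13:50984889-50985188, minus strand: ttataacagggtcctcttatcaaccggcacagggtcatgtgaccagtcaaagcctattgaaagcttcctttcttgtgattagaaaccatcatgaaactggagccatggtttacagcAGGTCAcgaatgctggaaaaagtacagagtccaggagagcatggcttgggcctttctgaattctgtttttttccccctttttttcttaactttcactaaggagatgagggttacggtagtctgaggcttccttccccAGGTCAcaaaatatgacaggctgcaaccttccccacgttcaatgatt
The upstream Hnf4a window holds ATCAAT at position -29 from the start site, and the Foxa2 window, not shown, holds it on the other strand at -136. This motif is present in 8.06% of all 33469 rat windows of this length. The Nr5a2 window holds AGGTCA at -134 and 4 bases past the start, a motif in 16.2% of all windows. The downstream Hnf4a window and the windows of Foxa3, Cebpa and Cebpb hold none of the 9. The Cebpb window has 81% G and C, against 45% for Nr5a2 and 55.3% for each Hnf4a window. The other motifs are found in 0.391% (CAAAGTCCA), 3.78% (TGTTTAC), 4.88% (TGTTTGC), 0.17% (TTGCGCAA), 10.6% (TTNNGCAA), 0.433% (TCAAGGTCA) and 1.52% (CAAGGTCA) of all windows. A match is a run of letters and not a measured site.

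Among the nuclear receptors, Hnf4a (NM_022180), which drives much of the adult hepatocyte program, had signals of 1.05, 0.997 and 1.23 in BDCM livers and 0.847, 1.09 and 0.943 in corn oil livers. The groups overlap, because corn oil replicate 2 lies above BDCM replicates 1 and 2. The means were 1.09 ± 0.123 in BDCM livers and 0.961 ± 0.124 in corn oil livers (SD, n = 3 each), a log2 fold change of 0.19 (SE 0.13, 95% interval -0.14 to 0.51, limma adjusted p = 0.418). Nr5a2 (NM_021742), also called LRH-1, a receptor that acts on bile acid and cholesterol genes, had 2.37, 1.88 and 2.36 in BDCM livers and 2.72, 3.06 and 2.39 in corn oil livers. The BDCM values lie below all corn oil values, with BDCM replicate 1 and corn oil replicate 3 almost level. The means were 2.20 ± 0.279 in BDCM livers and 2.72 ± 0.334 in corn oil livers (SD, n = 3 each), a log2 fold change of -0.31 (SE 0.14, 95% interval -0.65 to 0.04, limma adjusted p = 0.225). With spike-in scaling, described below, the Nr5a2 value is above 0.

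Nr5a2 was read by 3 probes, with log2 fold changes of -0.31, -0.35 and -0.32. On the last, A_64_P035940, the groups overlap, with 2.32 in BDCM replicate 3 and 2.28 in corn oil replicate 3. Hnf4a was also read by 3 probes, and these do not go the same way. Probe A_43_P12146, which had the highest mean signal and stands for the gene, was at 0.19 and probe A_64_P046573 at 0.15, whereas probe A_44_P419188 was at -0.33 (SE 0.09, limma adjusted p = 0.0733 over all kept probes). The choice of A_43_P12146 over A_44_P419188 was close to a tie. Their log2 difference averaged 0.26 in BDCM livers and -0.26 in corn oil livers, and the sign given for the gene rests on that choice. Probe A_44_P419188 had 0.841, 0.929 and 0.961 in BDCM livers and 1.11, 1.16 and 1.16 in corn oil livers, so its groups do not overlap. The log2 signal of A_43_P12146 minus that of A_44_P419188 was 0.32, 0.10 and 0.36 within the BDCM arrays and -0.40, -0.09 and -0.29 within the corn oil arrays. This difference does not depend on the scaling between arrays. It was 0.52 higher in BDCM livers, with an exact two-sided permutation p = 0.1, the smallest that 3 against 3 allows, and p = 0.367 after adjustment over all 11 pairs of probes of the same gene. The log2 signal of A_44_P419188 minus that of A_64_P046573 changed by -0.48 between BDCM and corn oil livers, with the same exact p = 0.1. The pairs were compared after the Hnf4a values had been seen. All 3 probes carry the accession of the same transcript, and which exons they bind was not examined, because no genome of the build of the array was used here.

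**Figure D2:**
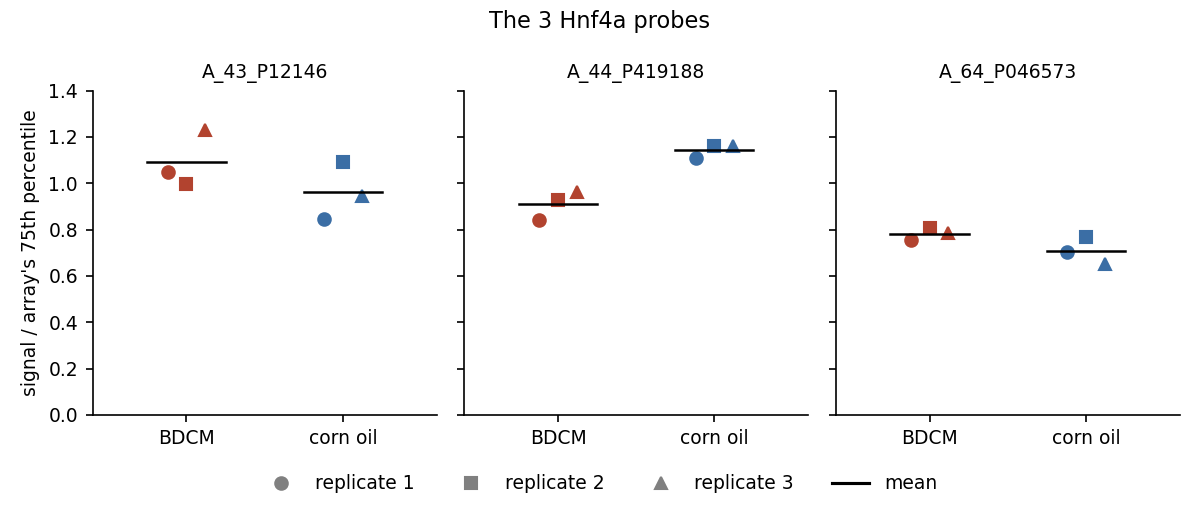
Relative signal (processed signal divided by the 75th percentile of the array) of the 3 Hnf4a probes in each of the 3 BDCM livers and the 3 corn oil livers, with the replicate as the marker shape and the mean as a line. A_44_P419188 is lower in all 3 BDCM livers than in any corn oil liver, and the groups overlap for the other 2 probes.

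Among the forkhead genes, Foxa1 (NM_012742) and Foxa2 (NM_012743) open liver enhancers during specification, and Foxa3 (NM_017077) is known in mice for its part in glucose metabolism of the adult liver. Foxa2 had 8.12, 5.23 and 4.27 in BDCM livers and 4.80, 2.51 and 4.37 in corn oil livers. BDCM replicate 1 is the highest and corn oil replicate 2 the lowest of the 6, and the groups overlap. The means were 5.87 ± 2.00 in BDCM livers and 3.90 ± 1.22 in corn oil livers (SD, n = 3 each), a log2 fold change of 0.59 (SE 0.33, 95% interval -0.20 to 1.39, limma adjusted p = 0.300). Without BDCM replicate 1 the log2 fold change was 0.33. Foxa1 had 1.07, 1.11 and 0.871 in BDCM livers and 1.19, 0.675 and 0.966 in corn oil livers (log2 fold change 0.14 with an SE of 0.22, adjusted p = 0.734). Its highest and lowest values are both corn oil values, so the BDCM values lie inside the range of the corn oil ones. Foxa3 had 1.62, 1.96 and 1.5 in BDCM livers and 1.32, 2.33 and 2.10 in corn oil livers (log2 fold change -0.15 with an SE of 0.23, adjusted p = 0.732), and again the BDCM values lie inside the corn oil range. The second probe of Foxa1 was at -0.09 and that of Foxa3 at -0.22.

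Of the C/EBP pair, CEBPA maintains metabolic genes and restrains hepatocyte division, and CEBPB is the member induced in the acute phase and in liver regeneration. Cebpb (NM_024125) had 30.2, 26.8 and 20.4 in BDCM livers and 40.2, 48.6 and 29.8 in corn oil livers. The groups overlap only where BDCM replicate 1 lies just above corn oil replicate 3. The means were 25.8 ± 4.99 in BDCM livers and 39.5 ± 9.44 in corn oil livers (SD, n = 3 each), a log2 fold change of -0.61 (SE 0.23, 95% interval -1.15 to -0.06), which did not pass after adjustment (limma adjusted p = 0.146). Both Cebpb probes were at -0.61. Cebpa (NM_012524) had 2.46, 2.15 and 1.76 in BDCM livers and 2.95, 1.54 and 1.90 in corn oil livers (log2 fold change 0.04 with an SE of 0.26, adjusted p = 0.946). The BDCM values of Cebpa lie inside the corn oil range, and its second probe was at -0.08.

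Prox1 (NM_001107201), a co-repressor of HNF4A and NR5A2 that hepatoblasts of mice need in order to migrate, had 0.136, 0.173 and 0.153 in BDCM livers and 0.122, 0.209 and 0.167 in corn oil livers. The BDCM values lie inside the corn oil range, at a log2 fold change of -0.08 with an SE of 0.21 (adjusted p = 0.838). Onecut1 (NM_022671), which acts in bile duct development and responds to growth hormone in rat liver, had 33.8, 27.1 and 25.2 in BDCM livers and 43.6, 4.27 and 24.2 in corn oil livers. The 3 BDCM livers lie within 1.34-fold of each other, and the corn oil livers span 10.2-fold, with corn oil replicate 2 far below the rest. The log2 fold change of Onecut1 was 0.78 with an SE of 0.81 and a 95% interval of -1.19 to 2.76 (limma adjusted p = 0.582). Its second probe had 14.6, 12.7 and 11.6 in BDCM livers and 20.4, 2.08 and 10.9 in corn oil livers, so corn oil replicate 2 is low on both probes. The log2 difference between the Onecut1 probes stayed between 1.04 and 1.21 over the 6 arrays.

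**Figure D3:**
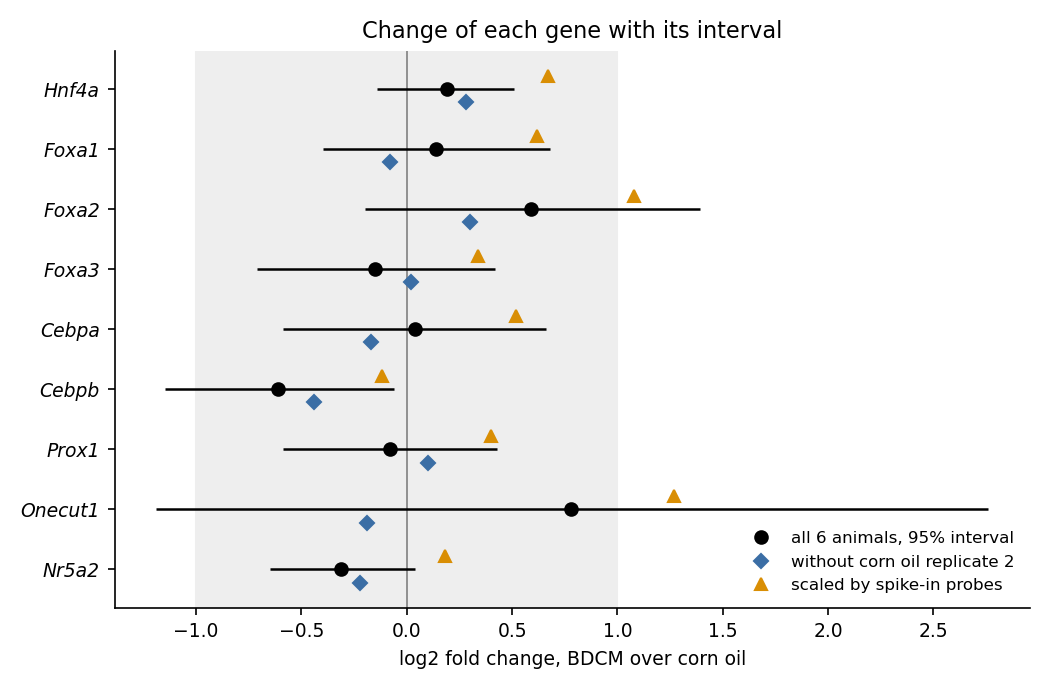
Log2 fold change, BDCM over corn oil, of the 9 genes with all 6 animals (circle, with the 95% interval from limma as a bar), without corn oil replicate 2 (diamond) and with scaling by the spike-in probes (triangle). The grey band marks a change of less than 2-fold either way, and the interval of Onecut1, from -1.19 to 2.76, is the widest.

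Corn oil replicate 2 touches most of these values. It was the highest or the lowest of the 6 arrays for 8 of the 9 genes, the exception being Hnf4a, against 33.5% of all features. Corn oil replicate 1 was at an end of the range for 6 genes, against 36.3% of all features, and corn oil replicate 3 for 0, against 30.3%. BDCM replicates 1, 2 and 3 were so for 1, 1 and 2 genes, against 38.9%, 29.7% and 31.4% of all features. Over all features, which are not independent replicates, the Pearson correlation of corn oil replicate 2 was 0.981 to 0.983 with the BDCM arrays and 0.990 and 0.991 with the other corn oil arrays. Without this animal, which was singled out after its values were seen, Onecut1 was at -0.19 (SE 0.28), Foxa1 at -0.08, Cebpa at -0.17, Prox1 at 0.10 and Foxa3 at 0.02, all with the other sign. Foxa2 was at 0.30, Cebpb at -0.44, Nr5a2 at -0.22 and Hnf4a at 0.28, and none of the 9 passed.

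The spread between animals was smaller in BDCM livers than in corn oil livers for 8 of the 9 genes, the exception being Nr5a2, and for 50.2% of all features. The median SD of the log2 signal over the 9 genes was 0.20 in BDCM livers and 0.42 in corn oil livers, and over all features it was 0.15 in BDCM livers and 0.14 in corn oil livers. The difference in spread was not tested. For Onecut1 the SD was 0.22 in BDCM livers and 1.74 in corn oil livers, and for Foxa1 it was 0.19 in BDCM livers and 0.42 in corn oil livers. Among 28 other liver transcription factors and partners, corn oil replicate 2 was at an end of the range for 5, against 33.5% of all features. Corn oil replicates 1 and 3 were so for 13 each, and BDCM replicates 1, 2 and 3 for 10, 10 and 5.

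**Figure D4:**
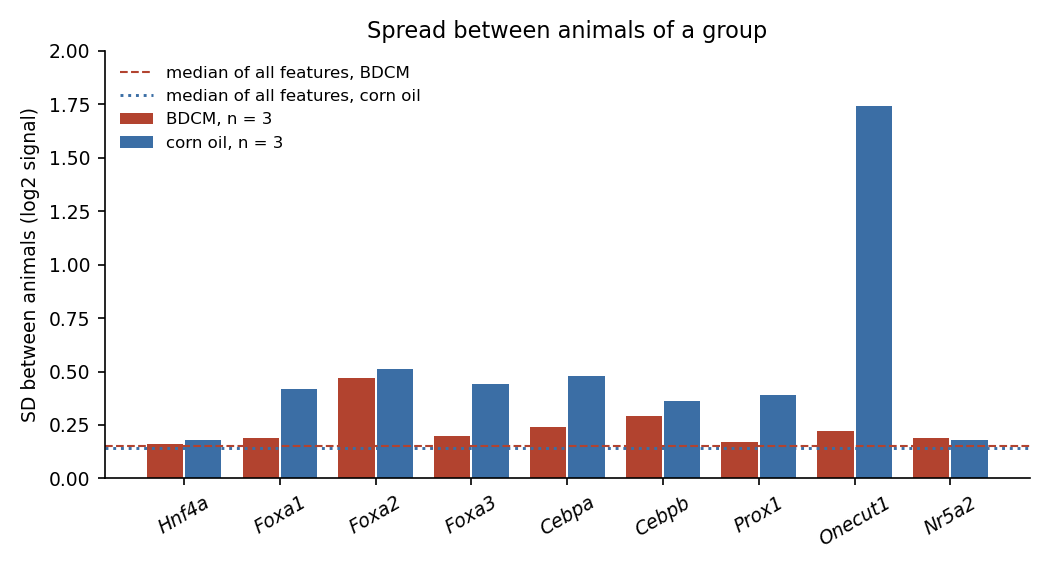
SD of the log2 signal between the 3 animals of a group for each of the 9 genes, BDCM and corn oil, with the median SD of all features as a dashed line for BDCM (0.15) and a dotted line for corn oil (0.14). The bars of Onecut1, 0.22 for BDCM and 1.74 for corn oil, differ most.

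Related members were also compared within each array, where the scaling cancels. The log2 signal of Cebpb minus that of Cebpa was 3.62, 3.64 and 3.53 in BDCM livers and 3.77, 4.98 and 3.97 in corn oil livers, a change of -0.64 with groups that do not overlap. It was -0.27 without corn oil replicate 2. Foxa1 minus Foxa2 was -2.92, -2.23 and -2.29 in BDCM livers and -2.01, -1.90 and -2.18 in corn oil livers, a change of -0.45, also without overlap, and -0.89 on slide 1 alone. Foxa1 minus Foxa3 changed by 0.29 and Foxa2 minus Foxa3 by 0.74, and in both the groups overlap. In exact two-sided permutation tests the first 2 differences had p = 0.1, the smallest possible value, and the others p = 0.7 and 0.3, or 0.2, 0.2, 0.7 and 0.4 after adjustment over the 4 pairs. None of the 4 could have passed 0.05 in this design.

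For the 3 factor genes with the smallest p, the measured genes with the most similar pattern were sought among 11396 genes, by the Euclidean distance of centred log2 values over the 6 arrays. Sdc4, a cell surface proteoglycan, was nearest to Cebpb with a distance of 0.147, and Fgd1 followed at 0.263, where the median gene lay at 1.06. Cops9 and Reln, the reelin gene, lay at 0.116 and 0.117 from Nr5a2, with a median of 0.665. C5h9orf43 and Calr3 lay at 0.327 and 0.345 from Foxa2, with a median of 1.30. None of these 6 genes passed the threshold, with adjusted p-values of limma from 0.148 to 0.353. They were picked for closeness to factors that did not pass, on the same 6 arrays, so this is no separate result. The nearest of so many genes also lies close by selection.

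Among the other liver transcription factors and their partners, 28 of 35 listed genes were measured, and 2 of them fell while none rose, against 3.41% of all features that fell. Klf15, a factor of amino acid and glucose metabolism, had 20.6, 19.5 and 22.9 in BDCM livers and 32.8, 31.9 and 26.9 in corn oil livers (log2 fold change -0.54, SE 0.12, adjusted p = 0.0416). Rxra, the partner with which many nuclear receptors pair, had 0.864, 0.717 and 0.786 in BDCM livers and 1.16, 1.11 and 1.09 in corn oil livers (log2 fold change -0.51, SE 0.10, adjusted p = 0.0325). In both genes the groups do not overlap. On slide 1 alone Klf15 was at -0.56 and Rxra at -0.38, neither past the threshold. The call of Klf15 ended whichever of the 6 animals was left out (-0.63 to -0.48), and that of Rxra held only without BDCM replicate 1 (-0.58 to -0.44 over the 6 fits). The list's median log2 fold change was -0.19, that of all features 0.

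Genes known as targets of the 9 factors were taken from 5 overlapping lists. These lists were chosen with earlier results of these data known, so the shares below describe them and are no test. Of 77 measured target genes outside the 9 factors 12 fell, which is 15.6%, and 1 rose, against 3.41% of all features that fell. Their median log2 fold change was -0.30, with 61 of 77 below 0, which is 79.2% of them and 49.8% of all features. On slide 1 alone the median was -0.33 with 1 lower, against 0.235% of all features, and without corn oil replicate 2 it was -0.29 with 2 lower, against 0.70% of all features. The targets past the threshold on slide 1 alone were Abcc3 and Cyp2c11, and with slide as a fixed block Apom as well. BDCM replicate 1 takes part in all of these counts.

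Of 32 measured HNF4A targets 5 fell and none rose, with a median of -0.28. Apom, the apolipoprotein that carries sphingosine phosphate, had 59.4, 63.9 and 75.2 in BDCM livers and 131, 131 and 141 in corn oil livers (log2 fold change -1.03, SE 0.11, adjusted p = 0.00977). All 3 BDCM values of Apom lie far below the corn oil ones. Apoa2, an apolipoprotein of HDL, had 298, 271 and 252 in BDCM livers and 449, 406 and 366 in corn oil livers, and Serpina1, the antitrypsin gene, had 475, 483 and 517 in BDCM livers and 704, 708 and 673 in corn oil livers. Their log2 fold changes were -0.57 (SE 0.12, adjusted p = 0.0359) and -0.50 (SE 0.08, adjusted p = 0.0227). Otc of the urea cycle and Slc10a1, the bile acid uptake transporter, were the others, at -0.53 and -0.44. With each animal left out in turn, the calls of Apoa2, Serpina1 and Slc10a1 ended in all 6 fits, at -0.64 to -0.50, -0.54 to -0.48 and -0.48 to -0.38. The call of Otc held only without corn oil replicate 1 or BDCM replicate 1 (-0.54 to -0.50), and that of Apom ended without BDCM replicate 2 (adjusted p = 0.0519) and on slide 1 alone (-1.18, adjusted p = 0.0813).

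Of 23 FOXA targets 4 fell and 1 rose, with a median of -0.25, and of 28 C/EBP targets 5 fell and none rose, with a median of -0.32. Both lists hold Cyp2c11, the male-specific P450, at -3.03 (SE 0.37), and Cps1, the first urea cycle enzyme, at -0.62 (SE 0.11). The FOXA target that rose was Abcc3, an efflux pump, at 4.43 (SE 0.13). Arg1, the arginase of the urea cycle, was the C/EBP target at -0.54 (SE 0.08), and Alb, a target in both lists, was at -0.25 and did not pass. Of 18 NR5A2 targets 3 fell and 1 rose, with a median of -0.42. Abcg8, part of the sterol efflux transporter, was at -1.71 (SE 0.34), and Gnmt, a glycine methyltransferase, at -0.93 (SE 0.15). The signals of Abcg8 were low, with 0.0779, 0.0423 and 0.0538 in BDCM livers and 0.188, 0.124 and 0.269 in corn oil livers. Abcg8 was at -1.24 and not past the threshold on slide 1 alone. Of 18 ONECUT1 and PROX1 targets 2 fell and none rose, with a median of -0.21. These were Pfkfb1, at -1.18 (SE 0.22), and Cyp2c13, a male-biased P450, at -0.85 (SE 0.10). The calls of Abcc3 and Cyp2c13 held in all 6 fits that left out 1 animal, and that of Cyp2c11 in all but the fit without corn oil replicate 2 (adjusted p = 0.0527). The call of Cyp2c13 ended with slide as a fixed block (adjusted p = 0.0734), on slide 1 alone (0.145) and with spike-in scaling (-0.37, adjusted p = 0.0995). The call of Abcg8 ended in all 6 (-2.0 to -1.44), those of Cps1 (-0.70 to -0.55) and Pfkfb1 (-1.36 to -1.05) held only without BDCM replicate 1, that of Arg1 (-0.58 to -0.52) also without corn oil replicate 1, and that of Gnmt (-1.07 to -0.85) without BDCM replicate 1 or corn oil replicate 3.

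**Figure D5:**
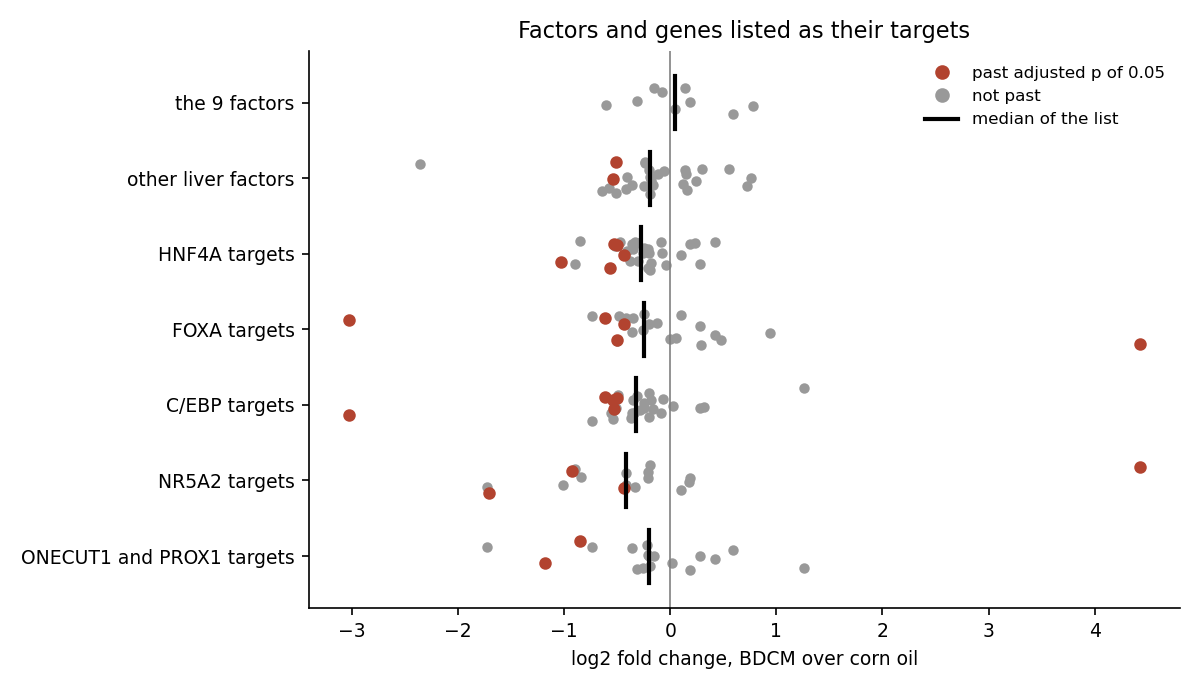
Log2 fold change, BDCM over corn oil, of each measured gene of the 9 factors, the other liver factors and the 5 lists of target genes, with red points past an adjusted p of 0.05 and a black line at the median of the list. The medians of the target lists lie between -0.42 and -0.21 and that of the 9 factors at 0.04.

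The scale of each array, its 75th percentile, sets the zero of these changes. Scaling by the 8 spike-in probes, which read control RNA added to each sample, moved the median of all features to 0.48, with 44.8% of features called. The median of the 9 factors was 0.52 with this scaling, against 0.04 without it. Under this scaling Hnf4a, at 0.67 (limma adjusted p = 0.0255), and Foxa2, at 1.08 (limma adjusted p = 0.0194), passed as higher in BDCM livers. The Hnf4a call was made on probe A_43_P12146, and the other Hnf4a probes were not read with this scaling. It shifts all probes of an array by the same amount. Their values by the 75th percentile, -0.33 for A_44_P419188 and 0.15 for A_64_P046573, therefore cannot be set beside 0.67. With the spike-in probes Cebpb was at -0.12, and Foxa1, Cebpa and Onecut1 were at 0.62, 0.52 and 1.27. Foxa3, Prox1 and Nr5a2 were at 0.34, 0.40 and 0.18. The 77 target genes had a median of 0.19 under spike-in scaling, with 11 higher and 4 lower, so the direction of that median depends on the scaling. The 4 lower ones were Apom, Cyp2c11, Abcg8 and Pfkfb1. Of the other liver factors 8 were higher and 1 lower, and Klf15 and Rxra, at -0.06 and -0.03, no longer passed. Of the hepatocyte markers 1 was higher and 0 lower, with 5 of 15 below 0 and a median of 0.21. Of the other marker lists below, 9 of 14 macrophage, 8 of 11 lymphocyte, 3 of 12 stellate cell, 2 of 9 bile duct and 1 of 8 endothelial markers were higher under this scaling and 0 lower, so the counts that follow hold for the 75th percentile only.

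Marker lists of liver cell types were read beside these values. Of 15 hepatocyte markers 3 fell, Cps1, Asgr1 and Serpina1, and 14 had a log2 fold change below 0, against 3.41% lower and 49.8% below 0 among all features. In such bulk tissue, fewer cells of a type and less RNA per cell cannot be told apart. Of 9 bile duct and progenitor markers 1 rose, the adhesion gene Epcam, with 1.94, 2.48 and 2.38 in BDCM livers and 1.2, 1.14 and 0.817 in corn oil livers (log2 fold change 1.12, SE 0.18, adjusted p = 0.0211). The keratin genes Krt19 and Krt7, which define bile duct cells, were at 0.16 and 0.12 and did not pass. The summed signal of the list was 10.5 to 13.3 in BDCM livers and 10.4 to 12.5 in corn oil livers. Most of that sum was Slc4a2 alone, with 7.04 to 9.02 in BDCM livers and 7.32 to 9.6 in corn oil livers. Of 14 macrophage markers none passed, with summed signals of 261 to 300 in BDCM livers and 249 to 308 in corn oil livers, and with log2 fold changes of 0.31 for Cd68 and 0.36 for Lyz2. A log2 fold change above 0 was found for 10 of the 14, with a median of 0.11. Of 12 stellate cell markers none passed either, with sums of 39.9 to 42.6 in BDCM livers and 35.9 to 46.7 in corn oil livers, with 7 of 12 below 0, and with Timp1 at 0.47 and Reln at -0.33. Of 8 endothelial markers Lyve1 fell, at -0.56, and all 8 had a log2 fold change below 0, with a median of -0.18. The sums of the endothelial list were 60.2 to 64.4 in BDCM livers and 73.0 to 74.6 in corn oil livers. Kdr alone gave 30.5 to 33.1 of them in BDCM livers and 36.1 to 38.7 in corn oil livers. Of 11 lymphocyte markers the T cell genes Cd3e, at least 1.33-fold higher, and Cd2, at least 1.47-fold higher, had an adjusted p of 0.0262 and 0.0383 in limma. Neither was well above background on any corn oil array, so both were kept only through the BDCM group in which they were higher, and these calls are no support for a change of the list. Both folds are bounds, the mean of the BDCM livers over the lowest signal that counts as above background on the corn oil arrays, or the signal of the probe itself where that is higher. The sums of the lymphocyte list were 3.24 to 3.94 in BDCM livers and 2.54 to 3.30 in corn oil livers, and with normexp background correction neither call held. With animals left out in turn, the calls of Cd2 and Lyve1 ended in all 6 fits, that of Cd3e in all but the one without corn oil replicate 2, and those of Epcam (0.95 to 1.23) and Asgr1 (-0.57 to -0.54) without corn oil replicate 2 or BDCM replicates 2 or 3. The part of these cell types in the values of the 9 factors was not tested.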

How the data were processed

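Per the submitters' processing notes, spots were quantified with Agilent Feature Extraction 10.7. Each deposited scanner file gives the intensity of a spot on a linear scale, and per the file headers the background was subtracted from its processed intensity. A value table deposited by the authors holds a ratio, and its values equal the processed signal over the 75th percentile of the array: at least 96.39% of probes lay within 1% of that. Its column medians were 0.0954 to 0.1019, its genes are not centred, and it was used for 1 alternative only. Which test the authors used is not given in the sources used here.

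Of 61657 probes that are not controls, 27 had a non-uniform or outlier spot and were left out, which left 61630. Deposited intensities were taken to log2, and the log2 75th percentile of the array was subtracted. Unversioned accessions were matched to RefSeq transcripts of GRCr8, for names only, since the array is of an older build: 27448 probes had 1 symbol, 0 several and 34182 none. Promoter windows carry GRCr8 coordinates. Probes were kept if all 3 arrays of either group had them well above background, and the probe with the highest mean stood for its gene. All 18 probes of the 9 genes were kept and were well above background on all 6 arrays, and 7 genes had more than 1 probe. Probes on their own were adjusted over 39027.

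The comparison used limma 3.58.1 (R 4.3.3; lmFit and eBayes, two-sided, Benjamini-Hochberg over 28995 features, threshold 0.05). This fit gave all adjusted p-values and the SE of each log2 fold change. The model was tested on simulated data. Precision is limited by the number of arrays. The 9 genes, the lists and the tests were chosen with earlier results of these data known. Named besides the 9 were up to 4 genes a list, those with the largest change past the threshold (the 2 of smallest p where none passed), and the 2 genes nearest in pattern to each of 3 factors. Alb, Krt19 and Krt7 were named as defining genes, and other genes outside the rule after their values were seen. The planned normexp alternative used median spot signals, because mean signals are not among the columns used here. The same replicate numbers in the groups come from the labels. Deviations of same-numbered animals from their group means correlated at 0.09, 0.02 and 0.12, and those of differently numbered animals at -0.10 to 0. The numbers were not taken as pairs, but these values do not settle whether the animals were paired. A fit with the replicate number as a block is given below. A planned comparison of protein sequences was not run, and the result of 1 gene is not reported here.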

Additional observations from a re-analysis of the deposited data

How the results depend on the processing

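The count of factors past the threshold was 0 in every alternative run except spike-in scaling, where it was 2. Over the 9 genes and the alternatives, 12 values changed sign. Without corn oil replicate 2 these were Foxa1 at -0.08, Foxa3 at 0.02, Cebpa at -0.17, Prox1 at 0.10 and Onecut1 at -0.19. With spike-in scaling they were Foxa3 at 0.34, Prox1 at 0.40 and Nr5a2 at 0.18. Without 1 animal the values ranged from -0.08 to 0.33 for Foxa1, -0.40 to 0.02 for Foxa3, -0.17 to 0.30 for Cebpa, -0.28 to 0.10 for Prox1 and -0.19 to 1.48 for Onecut1. Cebpa was at -0.02 with the mean over probes, at -0.02 without corn oil replicate 3 and at -0.08 without BDCM replicate 1, where Prox1 was at 0.01. The Cebpa probe A_43_P15494 was at 0.01 with normexp. Of the other named genes, Slc10a1 was at 0.04, Reln at 0.16, Fgd1 at 0.01 and Cops9 at 0.23 with spike-in scaling. Foxa1 minus Foxa2 was at -0.89 on slide 1 alone. With the mean over probes Hnf4a was at 0.00, and A_44_P419188 minus A_43_P12146 stayed between -0.44 and -0.60 in the alternatives run. The count of all features past the threshold, 2715, was 12996 with spike-in scaling, 609 with no filter on dim probes, 4126 with array weights, 350 with slide as a fixed block, 120 on slide 1 alone and between 335 and 1232 without 1 animal. The share of higher calls, 63.6%, was 74.2% with median centring, 97.6% with spike-in scaling, 43.3% on slide 1 alone and 49.6% without BDCM replicate 2. The replicate number as a block gave 353 features and 0 factors. The causes were not tested, and fewer animals or residual degrees of freedom are part of the block and left-out fits. Signals near background limit Cd3e and Cd2.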

Other observations

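Several transcription factor genes outside the 9 had values that differed widely between animals of a group, and they were chosen after their values were seen. Bcl6, a transcriptional repressor, had 1.39, 1.07 and 4.38 in BDCM livers and 6.71, 21.5 and 6.08 in corn oil livers. Its groups do not overlap, and its log2 fold change of -2.36 (SE 0.69) did not pass in limma (adjusted p = 0.0872). Hhex, a homeobox gene of early liver development, had 23.6, 9.94 and 9.45 in BDCM livers and 62.8, 10.9 and 7.54 in corn oil livers, so that replicate 1 is the highest in both groups. Dbp, a clock-controlled factor, had 13.0, 9.87 and 30.9 in BDCM livers and 7.04, 8.56 and 39.7 in corn oil livers, with replicate 3 the highest in both groups. The log2 fold changes of Hhex and Dbp were -0.41 (SE 0.83) and 0.24 (SE 0.75), and neither passed (adjusted p = 0.793 and 0.866).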
